A study of Mus musculus with 48 samples.

Results

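Tbx5, Tbx15, Tbx18, En1, Alx4, Dlx5, Dlx6 and Pitx1 are transcription factors outside the Hox clusters that mark positions in the embryo, and their transcripts were followed here in mouse skin. They were selected by gene symbol, and all 8 were found among the 46983 genes of each expression table. Whole skin of C57BL/6 mice, with no transgene or treatment given in the labels, was sampled from the chin, ventral and dorsal domains at 6 stages of the hair cycle. These were the 2 resting phases (competent and refractory telogen), 3 steps of growth (early, mid and late anagen) and the regression phase, catagen. This gave 43 libraries in 18 groups of 2 or 3. A second table of 7 libraries set ear skin in telogen (2 libraries) and the ear cartilage/muscle complex (3 libraries) beside 2 dorsal libraries, which were the dorsal competent telogen libraries of the first table with the same values at all 46983 genes, so that there were 48 distinct libraries. The labels give neither the age of the animals nor whether replicates came from separate mice or pools, so that every p-value measures the spread between libraries that may be technical.

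Positional factors of this kind are switched on in the embryo in restricted territories, and dermal fibroblasts keep part of that record in adult skin. T-box proteins bind DNA through a shared T-box domain, whereas Engrailed, Aristaless-like, Distal-less and Pitx proteins bind through a homeodomain. In development, Tbx5 is required for the forelimb, Pitx1 specifies the hindlimb and is expressed in the mandibular arch, Tbx15 patterns the dorsal dermis and the external ear, Tbx18 marks somite compartments, dermal papilla precursors and mural cells, En1 marks ventral limb ectoderm and a lineage of dorsal trunk fibroblasts, Alx4 acts in craniofacial and anterior limb mesenchyme, and Dlx5 and Dlx6 pattern the lower jaw and the skeleton.

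The 8 genes lie on 7 chromosomes of the GRCm38 (mm10) build. Tbx5 is at chr5:119832668-119885219 (plus strand), Tbx15 at chr3:99240381-99354259 (plus), Tbx18 at chr9:87702800-87731260 (minus) and En1 at chr1:120602418-120607992 (plus). Alx4 is at chr2:93642384-93681339 (plus) and Pitx1 at chr13:55825051-55836192 (minus). Dlx5 (chr6:6877805-6882085, minus) and Dlx6 (chr6:6863334-6868568, plus) are neighbours in opposite orientation. The libraries carried no strand information, and exons of Dlx6 overlap those of Dlx6os2, exons of Tbx18 those of D030062O11Rik, and exons of Pitx1 those of Gm28760 and Gm47071, so reads of these genes and their overlapping partners could not be told apart.

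Levels are given in FPKM, fragments scaled to the length of the transcript and to the mapped fragments of the library, which can be compared between genes because they are per length. The depth, estimated from the steps of the FPKM values, was about 6760000 to 29200000 fragments per library, with a median of 12900000. At the median depth 0.1 FPKM stood for 0.198 to 8.88 fragments, depending on the gene and its transcript, so values of the weakest members rested on few fragments.

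Some libraries went against their labels. The 2 chin late anagen and 2 dorsal competent telogen libraries formed 4 pairs that differed by 1.52 to 1.76 times the counting noise, inside the range of replicate pairs (1.18 to 10.7, 36 pairs) and below each of the 1088 other pairs of libraries from different groups, of which the closest stood at 2.99. The libraries labelled chin late anagen had trunk levels of Hoxb7, a Hox gene of the posterior body axis (7.25 and 8.41 FPKM, against at most 0.77 in the other 12 chin libraries). The libraries labelled dorsal competent telogen had summed hair matrix and shaft markers of 6722 and 6787 FPKM, against 1005 to 1258 in chin and ventral competent telogen. Marker sums of the libraries labelled ventral and dorsal refractory telogen (5261 to 6721 FPKM) were also far above those of chin refractory telogen (1613 to 2789). Dorsal early anagen had the lowest sums of these markers of any skin group, 318 and 369 FPKM, against 1384 to 2193 in chin and ventral early anagen. Chin refractory telogen replicate 2 held salivary gland markers at 2012 FPKM in sum, against at most 20.3 in the other 42 skin libraries, and the location label of ventral catagen replicate 1 read ear rostral. The differences between domains averaged over stages, the interaction tests and the counts of other factors are therefore also given without the competent telogen and late anagen stages, and the marker correlations without the chin late anagen and dorsal competent telogen groups. Early anagen and refractory telogen were kept throughout, with the unlike marker sums given above.

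Dlx5 and Tbx15 were the only members above 1 FPKM in all 43 skin libraries. Dlx5 ranged from 1.39 to 10.03 FPKM (median 4.96) and Tbx15 from 1.11 to 14.38 FPKM (median 3.19). Tbx18 followed with a median of 0.54 FPKM and reached 0.5 FPKM in 24 libraries. Alx4 (median 0.31), En1 (0.26), Dlx6 (0.19), Tbx5 (0.12) and Pitx1 (0.05 FPKM) reached 0.5 FPKM in 8, 6, 4, 3 and 1 libraries. Tbx5 was listed at 0 in 6 libraries, Dlx6 in 4 and Pitx1 in 11. Pitx1 did not meet the minimum of 0.5 FPKM in 2 libraries and was not tested, so tests across the 43 libraries covered 7 of the 8 members. Tbx5 met this minimum only through the 3 ventral competent telogen libraries, the group where it was highest. Its p-values and its place in the counts of calls therefore give no independent support for a domain difference. Dlx6 met the minimum only in chin early anagen, chin competent telogen and ventral early anagen, its highest groups, and no dorsal library exceeded 0.25 FPKM. Alx4 met it only in its highest groups, dorsal and chin early anagen and ventral and chin competent telogen. The p-values of both for differences that involve these groups give no independent support either.

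**Figure D1:**
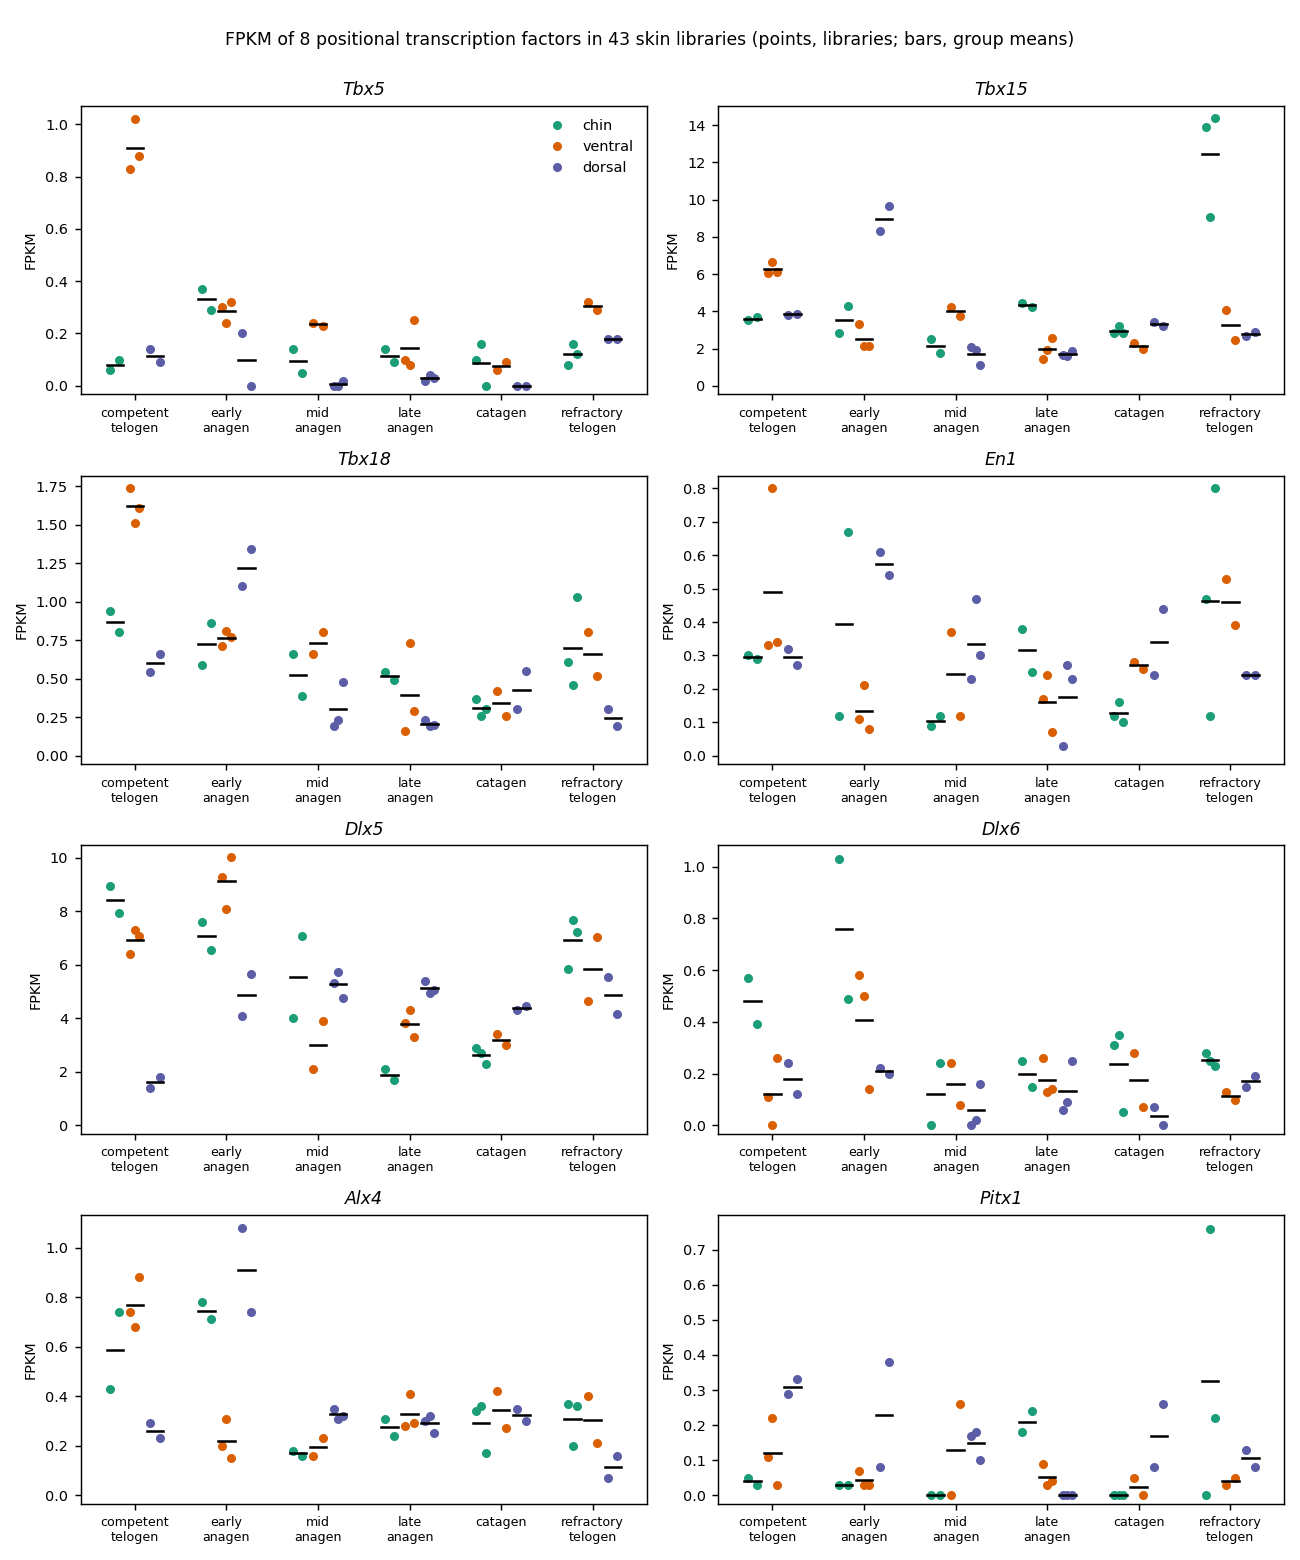
FPKM (y axes, linear, a scale for each gene) of the 8 factors in the 43 skin libraries by hair cycle stage (x axes), where points are libraries, colours are domains and black bars are group means. The 3 ventral competent telogen libraries stand alone for Tbx5 (0.83 to 1.02 FPKM), and chin refractory telogen and dorsal early anagen hold the highest Tbx15 values (9.04 to 14.38 and 8.33 to 9.63 FPKM).

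Tbx5, the forelimb factor, had its 3 highest values in a single group. In ventral competent telogen it stood at 0.83, 1.02 and 0.88 FPKM (0.910 ± 0.0985, SD, n = 3), and no other skin library exceeded 0.37 FPKM, the value of chin early anagen replicate 1. Ventral skin held 0.32 and 0.29 FPKM in refractory telogen, 0.30, 0.24 and 0.32 FPKM in early anagen, and 0.24 and 0.23 FPKM in mid anagen. Dorsal libraries were at 0 in both catagen libraries and at most at 0.2 FPKM anywhere, although above chin skin by group means in competent telogen (0.115 against 0.08 FPKM) and refractory telogen (0.18 against 0.12 FPKM), and the difference from ventral skin was negative at each of the 6 stages. In the order of the 18 group means the step from ventral competent telogen to chin early anagen was free of overlap, as were 2 other steps between neighbours of 17, and the remaining neighbours overlapped. Such steps were not counted over all genes, so here and for the members below they are descriptions only.

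Tbx15 was highest in chin refractory telogen, with 13.88, 9.04 and 14.38 FPKM (12.4 ± 2.95, SD, n = 3). Dorsal early anagen followed with 8.33 and 9.63 FPKM (8.98 ± 0.919, n = 2), whose range overlapped that of chin refractory telogen. Ventral competent telogen came next with 6.05, 6.63 and 6.09 FPKM (6.26 ± 0.324, n = 3), without overlap with either neighbour. The other 15 groups had means between 1.70 FPKM in dorsal mid anagen and 4.32 FPKM in chin late anagen, and the highest group thus belonged to a different stage in each domain. Neighbours in this lower part overlapped at all steps except from dorsal competent to chin competent telogen.

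Tbx18 had its highest levels in ventral competent telogen (1.74, 1.51 and 1.61 FPKM, mean 1.62 ± 0.115, SD, n = 3) and then in dorsal early anagen (1.10 and 1.34 FPKM). Chin competent telogen was next with 0.94 and 0.80 FPKM, and these 3 groups did not overlap. Dorsal late anagen was lowest with 0.23, 0.19 and 0.20 FPKM. The remaining groups formed a series of overlapping neighbours.

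En1 showed wide spread inside groups. Chin refractory telogen libraries held 0.47, 0.12 and 0.80 FPKM, ventral competent telogen 0.33, 0.80 and 0.34 FPKM, and chin early anagen 0.12 and 0.67 FPKM. The group with the highest mean was dorsal early anagen (0.61 and 0.54 FPKM), and 1 of the 17 steps between neighbouring groups was free of overlap. Alx4 was highest in dorsal early anagen (1.08 and 0.74 FPKM), ventral competent telogen (0.74, 0.68 and 0.88 FPKM), chin early anagen (0.78 and 0.71 FPKM) and chin competent telogen (0.43 and 0.74 FPKM). Those 4 groups overlapped one another in sequence and lay apart from the other 14, of which ventral catagen had the highest mean, 0.345 FPKM.

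Dlx5 peaked in ventral early anagen (9.28, 8.07 and 10.03 FPKM, mean 9.13 ± 0.989, SD, n = 3) and in chin competent telogen (8.94 and 7.93 FPKM), which overlapped. It was lowest in dorsal competent telogen (1.39 and 1.82 FPKM) and chin late anagen (2.09 and 1.68 FPKM), the groups whose libraries resembled each other across all genes. Outside competent telogen the dorsal libraries were narrowly spread, from 4.09 to 5.72 FPKM. Dlx6, the linked paralogue, had a far lower level. Chin early anagen was highest with 1.03 and 0.49 FPKM, and chin competent telogen held 0.57 and 0.39 FPKM. Ventral early anagen held 0.58, 0.50 and 0.14 FPKM, and dorsal libraries did not exceed 0.25 FPKM. No step between neighbouring groups was free of overlap for Dlx6.

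Pitx1 was at or near 0 in most skin libraries. It reached 0.76 FPKM in chin refractory telogen replicate 2, the library with the salivary gland markers, while the other libraries of that group held 0 and 0.22 FPKM. The part of those markers in the Pitx1 value was not tested. Dorsal competent telogen held 0.29 and 0.33 FPKM, and the 3 dorsal late anagen, 3 chin catagen and 2 chin mid anagen libraries were listed at 0.

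The first comparison asked whether the factors differed between domains over the whole cycle. With limma on log2(FPKM + 1), averaging the 6 stages with equal weight and adjusting over all 21257 genes tested by the Benjamini-Hochberg method, 7 of 21 differences passed an adjusted p of 0.05. Called were 2 of 7 members between ventral and chin skin, where 23.7% of all genes were called, 2 of 7 between dorsal and chin (26.8% of all genes) and 3 of 7 between dorsal and ventral (37.5% of all genes). These shares of members were near those of all genes. Median differences over all genes lay between -0.04 and -0.00 in the 3 contrasts, all on the log2(FPKM + 1) scale, which understates the change of weak genes.

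Tbx5 was higher in ventral than in chin skin by 0.20 ± 0.03 (standard error, adjusted p = 9.19e-05) and lower in dorsal than in ventral skin, with a difference of -0.28 (adjusted p = 1.89e-07). With 0.1 in place of 1 FPKM added before the logarithm these differences became 0.70 and -1.20. Tbx5 then also passed between dorsal and chin skin, at -0.51 (adjusted p = 0.0242). Since Tbx5 met the minimum only through ventral competent telogen, where it was highest, its p-values in the main fit give no independent support. Tbx18 was lower in dorsal than in ventral skin (-0.22, adjusted p = 0.00358), and so was Dlx5 (-0.20, adjusted p = 0.0354), a call lost when any of 10 libraries was left out, with ventral catagen replicate 1 among them (adjusted p = 0.0671 without it). Tbx15 was lower in ventral (-0.32, adjusted p = 0.00366) and in dorsal skin (-0.28, adjusted p = 0.0101) than in chin skin, and Dlx6 was below the chin level in dorsal skin (-0.23, adjusted p = 0.00603). Since Dlx6 met the minimum only in chin and ventral libraries, its p-value gives no independent support. Without the chin refractory telogen library that held salivary gland markers, the Tbx15 differences were -0.35 (adjusted p = 0.000750) and -0.31 (adjusted p = 0.00229). With 0.1 FPKM added, the Tbx18 and Dlx6 differences became -0.54 and -0.81. En1 and Alx4 passed in none of the 3 contrasts, with differences between -0.04 and 0.06.

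The domain differences were not separated library by library. No member, and no gene among 21257, had all libraries of a domain above or below all libraries of another, a share of 0% in each of the 3 pairs of domains. When each of the 18 groups was entered as its mean with the stage as a block, limma called 0% of genes in ventral against chin, 0% in dorsal against chin and 0% in dorsal against ventral skin, and no member. At an unadjusted threshold of 0.05 this fit held 783, 824 and 1539 of the 21257 genes, and 0, 1 and 1 of the members, in the same order of contrasts. These members were Dlx6 between dorsal and chin skin (adjusted p = 0.999 by limma) and Tbx5 between dorsal and ventral skin (adjusted p = 0.657 by limma). Both were tested only through groups where they were highest, so neither gives independent support for a domain difference. No member was called in the same direction at all 6 stages in any contrast, and of all genes 1 was, between dorsal and chin skin.

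Without the competent telogen and late anagen stages 2 of the 7 calls remained. Tbx15 was lower in ventral than in chin skin (-0.42, adjusted p = 0.00965), where 21.4% of 20644 genes were called, and of the 4 stages refractory telogen held most of it (-1.65, against -0.37 in early anagen, 0.68 in mid anagen and -0.35 in catagen, none of which passed in this fit). In refractory telogen hair matrix and shaft sums were 5804 to 6721 FPKM in ventral skin and 1613 to 2789 FPKM in chin skin. The part of those sums in this call was not tested. Dlx6 was below the chin level in dorsal skin (-0.24, adjusted p = 0.0404), where 24.2% were called. It met the minimum in these stages only in early anagen libraries of chin and ventral skin, so its p-value gives no independent support. Between dorsal and ventral skin no member was called against 35.4% of genes. The Tbx15 difference between dorsal and chin skin was then -0.19 (adjusted p = 0.232), the Tbx18 difference between dorsal and ventral skin -0.10 (adjusted p = 0.320) and the Dlx5 difference 0.01 (adjusted p = 0.965). Tbx5 no longer met the minimum level and was not tested, since its 3 libraries at or above 0.5 FPKM were those of ventral competent telogen.

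The differences between domains varied with the stage. The interaction of domain and stage, an F test in limma, passed for Tbx15 (adjusted p = 8.48e-10), Dlx5 (6.51e-09), Tbx5 (6.36e-06), Alx4 (1.40e-05) and Tbx18 (0.00125), and did not pass for En1 (0.107) and Dlx6 (0.432). Across all genes 73.3% passed, so that 5 of 7 members was close to the share of all genes. Tbx5 was among the members tested only through ventral competent telogen, the group where it was highest. Alx4 was among them only through its highest groups, all in competent telogen or early anagen. Without the competent telogen and late anagen stages 65.5% of genes passed, and of the 6 members tested Tbx15 (adjusted p = 9.90e-07), Alx4 (0.00188), Dlx5 (0.00200) and Tbx18 (0.0156) passed. Taken stage by stage, 35 of 126 differences between domains passed. Of all genes 3.14% to 47.9% passed in the single contrasts, so the total is not a trait of the members.

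In competent telogen, the stage in which follicles can answer signals to regrow, ventral skin stood apart for the T-box genes. Relative to chin skin, Tbx5 (0.82, adjusted p = 3.74e-08), Tbx15 (0.65, adjusted p = 0.0123) and Tbx18 (0.49, adjusted p = 0.0119) were higher and Dlx6 was lower (-0.40, adjusted p = 0.0431), against 23% of all genes called. Tbx5 was tested only because these ventral libraries reached the minimum, so its p-value gives no independent support. Dlx6 was tested only through its highest groups, chin competent telogen among them, which limits its p-value in the same way. Dorsal skin was lower than ventral skin for Tbx5 (-0.78), Tbx15 (-0.59), Tbx18 (-0.71), Alx4 (-0.49) and Dlx5 (-1.61), 5 of 7 members against 47.9% of genes. Dlx5 (-1.86) and Alx4 (-0.32) were below their chin levels in dorsal skin, against 36.7% of genes. The dorsal side of both contrasts rested on the libraries that resembled chin late anagen, and the ventral libraries had the highest summed dermal fibroblast markers of the 18 groups (6291 to 6418 FPKM, against 1858 and 1935 in chin and 1403 and 1406 in dorsal libraries).

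In early anagen, when the follicle begins to grow down, dorsal skin differed from ventral skin in both directions. Tbx15 (1.52, adjusted p = 1.94e-07), Alx4 (0.64, adjusted p = 6.61e-06) and En1 (0.48, adjusted p = 0.0176) were higher and Tbx5 (-0.23) and Dlx5 (-0.80) lower in dorsal than in ventral skin, against 41.7% of genes called. Relative to chin skin, dorsal skin was higher for Tbx15 (1.15) and lower for Tbx5 (-0.28) and Dlx6 (-0.52), against 27% of genes. Between ventral and chin skin only Alx4 passed (-0.52, adjusted p = 0.000163), against 32.9% of genes. Alx4 met the minimum only in its highest groups, dorsal and chin early anagen among them, and Dlx6 only in its own, chin early anagen among them. Their p-values at this stage therefore give no independent support. The dorsal libraries of this stage had fibroblast sums of 5244 and 5273 FPKM, against 2006 to 2562 in chin and ventral early anagen, and skeletal muscle sums of 5402 and 5643 FPKM, against at most 845 in the others. Their hair matrix and shaft sums, 318 and 369 FPKM, were the lowest of any skin group, against 1384 to 2193 in the others. The part of these markers in the differences was not tested.

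In mid anagen Tbx15 was higher (0.68) and Dlx5 lower (-0.71) in ventral than in chin skin, against 22.1% of genes. No member differed between dorsal and chin skin, where 17.2% of genes did. Dorsal skin was lower than ventral skin for Tbx5 (-0.29), Tbx15 (-0.91) and Tbx18 (-0.42) and higher for Dlx5 (0.68), 4 of 7 members against 28.3% of genes. The ventral libraries of this stage had fibroblast sums of 4039 and 4072 FPKM, against 1005 to 1076 in dorsal and 776 and 1224 in chin libraries, and their part in these differences was not tested. In late anagen Tbx15 was lower and Dlx5 higher than in chin skin both in ventral skin (-0.86 and 0.73, against 15.6% of genes) and in dorsal skin (-0.97 and 1.09, against 19.5% of genes). Both rested on the chin late anagen libraries with trunk Hox levels. Between dorsal and ventral late anagen no member and 3.14% of genes passed.

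In catagen, the regression phase, dorsal skin exceeded chin skin in Dlx5 (0.57, adjusted p = 0.0119), the only member called there against 41.3% of genes. No member differed between ventral and chin skin (5.19% of genes) or between dorsal and ventral skin (35.4% of genes). In refractory telogen Tbx15 fell short of the chin level in ventral (-1.65, adjusted p = 8.96e-08) and in dorsal skin (-1.81, adjusted p = 1.42e-08). Tbx5 was higher in ventral than in chin skin (0.22, adjusted p = 0.0446) and Tbx18 was below the chin level in dorsal skin (-0.44, adjusted p = 0.0155). All genes were called at 30.7% and 34.8% in these contrasts, and dorsal and ventral refractory telogen did not differ in any member, against 13.7% of genes. The 3 chin refractory telogen libraries had skeletal muscle sums of 9629 to 14745 FPKM, above all other skin libraries, and fibroblast sums of 2053 to 3387 FPKM and macrophage sums of 107 to 187 FPKM, against 1150 to 1189 and 27.1 to 31.1 FPKM in dorsal refractory telogen. Hair matrix and shaft sums were 1613 to 2789 FPKM in chin, 5804 to 6721 FPKM in ventral and 5261 to 5481 FPKM in dorsal refractory telogen. The part of these markers in the Tbx15 level was not tested.

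**Figure D2:**
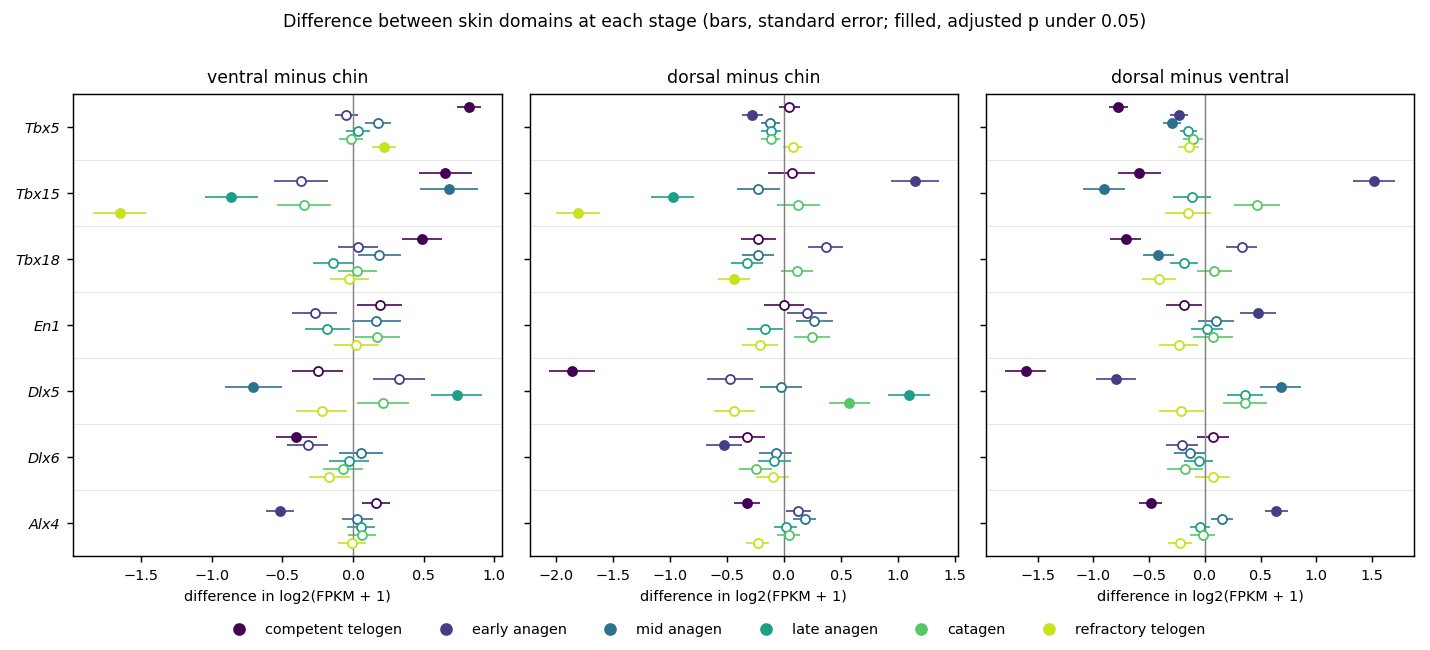
Difference in log2(FPKM + 1) (x axes) between domains at each stage for the 7 tested factors (rows), with colours for stages, bars for the standard error and filled points for adjusted p under 0.05. Tbx15 and Dlx5 lie on both sides of 0 in each panel, whereas Tbx5 lies below 0 at all 6 stages in dorsal minus ventral skin.

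Inside a domain, Tbx15, Tbx18, Alx4 and Dlx5 changed over the stages in chin, ventral and dorsal skin alike by the F test. Tbx5 changed in chin (adjusted p = 0.0325) and ventral skin (4.50e-09) and Dlx6 in chin skin (0.00658), whereas En1 passed in no domain, with adjusted p-values between 0.0940 and 0.266. The counts were 6 of 7 members in chin, where 66.2% of genes passed, 5 of 7 in ventral (70.2% of genes) and 4 of 7 in dorsal skin (68.5% of genes).

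Across the 18 group means several members followed the summed dermal fibroblast markers (Pdgfra and the collagen and matrix genes Col1a1, Col1a2, Col3a1, Dpt, Lum and Dcn). Pearson's r with their summed level on the log2 scale was 0.86 for Tbx18, 0.70 for Tbx15, 0.68 for En1, 0.64 for Tbx5, 0.61 for Alx4, 0.35 for Dlx5 and 0.14 for Dlx6. The sum weighs the strongest genes most, with chin means of 411 FPKM for Col1a1 and 2.46 FPKM for Pdgfra. Between ventral and chin skin Pdgfra was at -0.13 and not called, whereas 5 of the 7 markers were called higher. The sum therefore mostly follows collagen and matrix transcripts. With the hair matrix and shaft markers r was -0.78 for Tbx18 and -0.77 for Alx4, and between -0.65 and -0.36 for Tbx5, Tbx15, En1, Dlx5 and Dlx6. Dlx5 was highest against the epidermal (0.63) and cartilage markers (0.62), and Alx4 was the member nearest to the dermal papilla markers (0.71). The cartilage markers summed to only 1.07 to 7.37 FPKM in the skin libraries, and 4 of the 10 met the minimum there, so their r rests on weak genes. Tbx15 was closest to the macrophage markers (0.77), with 0.70 for the mural cell, 0.68 for the salivary gland and 0.57 for the skeletal muscle markers. Chin refractory telogen, the highest group for Tbx15, held the library with a salivary gland sum of 2012 FPKM, against at most 20.3 FPKM in the other 42 skin libraries. The salivary gland r without that library was not computed. Tbx18 had 0.73 with the mural cell markers and Pitx1 0.76 with the skeletal muscle markers. Over the 16 groups without chin late anagen and dorsal competent telogen, r with the fibroblast markers was 0.87 for Tbx18, 0.74 for Tbx15, 0.70 for En1, 0.64 for Tbx5, 0.60 for Alx4, 0.31 for Dlx5 and 0.13 for Dlx6, and Tbx15 had 0.84 with the macrophage markers. Dlx5 then had 0.64 with the cartilage and 0.63 with the epidermal markers. In whole skin, more cells of a type and more RNA per cell cannot be told apart, and the points share libraries and their depth, so these values are descriptions without a test.

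**Figure D3:**
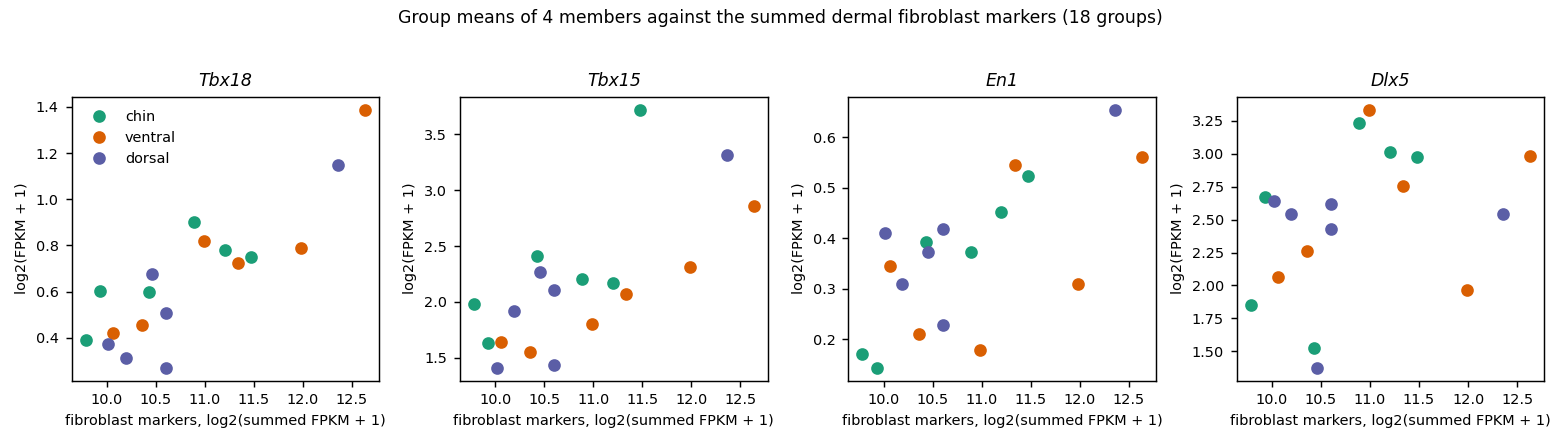
Group means of log2(FPKM + 1) of Tbx18, Tbx15, En1 and Dlx5 (y axes) against the log2 summed FPKM of 7 dermal fibroblast markers (x axes) for the 18 domain and stage groups, coloured by domain. Tbx18 climbs with the marker sum (r = 0.86), with ventral competent telogen and dorsal early anagen at the upper right, while Dlx5 scatters (r = 0.35).

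Among themselves the members were most alike for Tbx15 and En1 (r = 0.71), Tbx18 and Alx4 (0.69) and Tbx5 and Tbx18 (0.69), and least alike for Dlx5 and Pitx1 (-0.32). Dlx5 and Dlx6, which share enhancers in the embryo, had r = 0.38 over the 18 groups. Of all tested genes, the pattern most like that of Tbx5 was Hand2, another limb bud factor (r = 0.91), followed by Gm43050 (0.89) and Serpinb3a (0.87). These values lean on ventral competent telogen, where Tbx5 had a mean of 0.91 FPKM, against at most 0.33 FPKM in any other group. Tbx15 was most like Arhgef6 (0.95), Nova1 (0.93) and Sspn (0.93), of which Sspn encodes sarcospan, a component of the dystrophin complex of muscle. Tbx18 was most like Pcdh18 (0.93), Nid2 (0.93) and Col4a2 (0.92), the latter pair encoding basement membrane proteins. En1 was nearest to Etv5 (0.88), Col15a1 (0.86) and Pcolce (0.84), Alx4 to Acan (0.92), Gm5141 (0.91) and Enkd1 (0.91), Dlx5 to Them5 (0.95), Mrgprb9-ps (0.94) and Gsta2 (0.94), and Dlx6 to Gm24436 (0.87), Mir3470b (0.87) and Gm24823 (0.84).

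Other positional factors were counted in 2 lists, with 28 craniofacial genes (Msx, Dlx, Alx, Prrx and related families) and 26 trunk and limb genes (Tbx, Meox, Irx, Meis, Osr and related families), of which 20 and 20 were tested. The lists are not exclusive by position, as Hand2, Msx1, Prrx1 and Prrx2 of the craniofacial list also act in the limb. Between ventral and chin skin 0 craniofacial factors were higher and 7 lower (median -0.12), and 9 trunk and limb factors were higher and 0 lower (median 0.16). Between dorsal and chin skin 4 craniofacial factors were higher and 4 lower (median -0.01), and 1 trunk and limb factor was higher and 10 lower (median -0.15). Between dorsal and ventral skin these counts were 8 higher and 4 lower (median 0.10) and 1 higher and 13 lower (median -0.32). The shares of all genes called were 23.7%, 26.8% and 37.5% in these contrasts. The 7 dermal fibroblast markers had 5 higher and 0 lower between ventral and chin skin, 1 higher and 2 lower between dorsal and chin skin, and 0 higher and 6 lower between dorsal and ventral skin, and their part in the counts was not tested. Over the 4 stages without competent telogen and late anagen, the craniofacial counts were 0 higher and 9 lower, 3 and 3, and 10 and 0, and the trunk and limb counts 6 higher and 0 lower, 1 and 6, and 1 and 11, in the same order of contrasts. None of the listed factors had libraries that kept 2 domains free of overlap.

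The ear table asked how ear skin, where follicles rest in a long telogen, and the underlying cartilage/muscle complex differed from dorsal skin. Cartilage genes summed to 824 to 911 FPKM in the complex and to at most 7.37 FPKM in any skin library, skeletal muscle genes to 16756 to 19537 FPKM, and hair matrix and shaft genes to 0. Of the 8 members, Tbx15, Tbx18, Dlx5 and Dlx6 met the minimum and were tested, in a fit of this table alone with 19299 genes. The median difference over all genes was 0.33 for ear minus dorsal skin, 0.24 for complex minus dorsal skin and -0.11 for complex minus ear skin.

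Dlx5 rose in steps over the tissues. It stood at 1.39 and 1.82 FPKM in dorsal skin, 11.40 and 11.88 FPKM in ear skin, and 95.25, 99.28 and 105.52 FPKM in the complex (100.0 ± 5.17, SD, n = 3). Differences were 2.28 ± 0.10 for ear minus dorsal skin (adjusted p = 1.08e-05 by limma), 5.28 for complex minus dorsal skin (adjusted p = 7.08e-08) and 3.00 for complex minus ear skin (adjusted p = 9.52e-07), or 1.95, 5.04 and 3.10 relative to the median gene. The dorsal libraries were the lowest of the 18 skin groups for Dlx5. With the 2 dorsal refractory telogen libraries in their place (5.56 and 4.18 FPKM) the ear minus dorsal difference was 1.12 (adjusted p = 0.000469). Epidermal markers summed to 10643 and 11790 FPKM in ear skin, 3697 and 3793 FPKM in dorsal competent telogen and 6828 and 7582 FPKM in dorsal refractory telogen. Hair matrix and shaft markers summed to 29.3 and 32.0 FPKM in ear skin and to 5261 and 5481 FPKM in dorsal refractory telogen. The part of these markers in the Dlx5 difference between ear and dorsal skin was not tested.

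Dlx6 stood at 18.11, 19.99 and 19.71 FPKM in the complex (19.3 ± 1.01, SD, n = 3), against 0.13 and 0.26 FPKM in ear skin and 0.24 and 0.12 FPKM in dorsal skin. The complex exceeded ear skin by 4.09 ± 0.10 (adjusted p = 3.70e-07) and dorsal skin by 4.10 (adjusted p = 3.30e-07), and ear minus dorsal skin was 0.02 ± 0.11 (adjusted p = 0.905). Dlx6 thus did not exceed 0.26 FPKM in either skin, whereas Dlx5 passed between them. Dlx6 met the minimum of 0.5 FPKM only through the complex libraries, where it was highest, so its p-values give no independent support.

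Tbx15 also rose in steps, from 3.82 and 3.84 FPKM in dorsal skin to 9.16 and 8.65 FPKM in ear skin and 22.70, 22.39 and 24.12 FPKM in the complex (23.1 ± 0.922, SD, n = 3). The differences were 1.04 ± 0.07 for ear minus dorsal skin (adjusted p = 7.23e-05), 2.32 for complex minus dorsal skin (adjusted p = 6.95e-07) and 1.28 for complex minus ear skin (adjusted p = 9.89e-06). Relative to the median gene they were 0.71, 2.08 and 1.39. With dorsal refractory telogen in place of the dorsal libraries the first became 1.39. Dermal fibroblast markers summed to 10688 and 11025 FPKM in ear skin, 4349 to 4481 FPKM in the complex and 1403 and 1406 FPKM in the dorsal libraries, where 7 of 7 were higher in ear than in dorsal skin (median 2.40). Macrophage markers summed to 248.0 and 264 FPKM in ear skin against 107 and 113 FPKM in the dorsal libraries. The part of these markers in the Tbx15 difference between ear and dorsal skin was not tested.

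Tbx18 did not pass between any of the tissues, with 0.54 and 0.66 FPKM in dorsal skin, 0.67 and 0.45 FPKM in ear skin, and 0.66, 0.82 and 0.76 FPKM in the complex. In all, 2 of 4 tested members passed in ear against dorsal skin, where 59.3% of genes passed, 3 of 4 in complex against dorsal skin (71.1%) and 3 of 4 in complex against ear skin (66.5%). Dlx6 stands among the tested members through the complex libraries alone. With dorsal refractory telogen libraries the counts were 2 of 4 against 57.5% of genes, 4 of 4 against 68.5% and 3 of 4 against 66.2%, as Tbx18 then passed in complex minus dorsal skin (0.49, adjusted p = 0.00726).

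**Figure D4:**
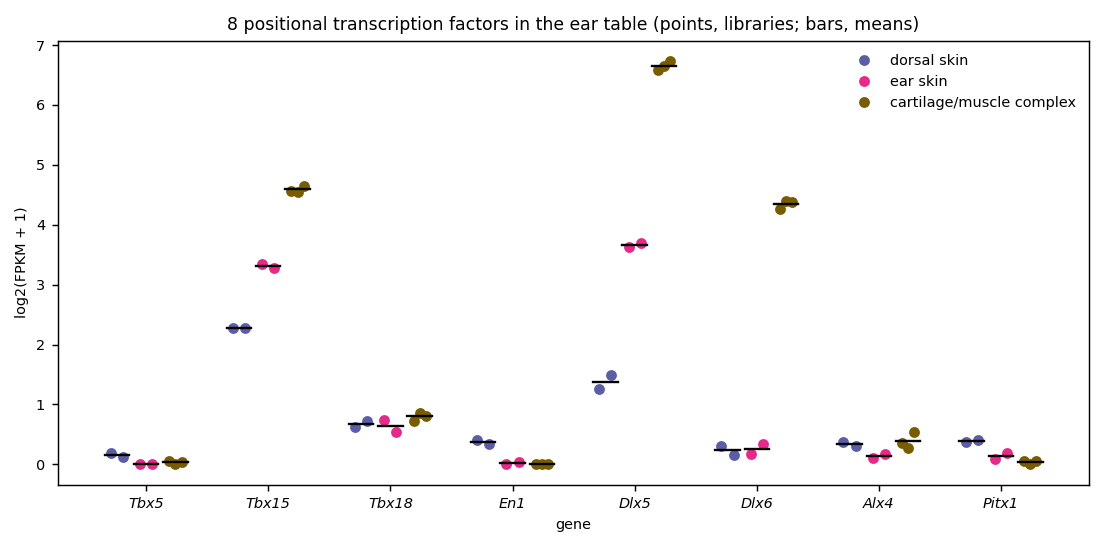
Log2(FPKM + 1) (y axis) of the 8 factors (x axis) in the 2 dorsal skin, 2 ear skin and 3 cartilage/muscle complex libraries (points), with black bars for means. Dlx5 and Tbx15 step up from dorsal to ear skin to the complex, Dlx6 stands out in the complex alone, and En1 lies at 0 in all 3 libraries of the complex.

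The 4 members below the minimum are given as values. En1 was at 0.32 and 0.27 FPKM in dorsal skin, 0.01 and 0.03 FPKM in ear skin and listed at 0 in the 3 complex libraries. The ear skin values of En1 stood for about 0.706 and 1.19 fragments, too few to set ear skin apart from the complex. Pitx1 was at 0.29 and 0.33 FPKM in dorsal skin, 0.07 and 0.14 FPKM in ear skin and at most 0.04 FPKM in the complex. Tbx5 was at 0.14 and 0.09 FPKM in dorsal skin and at most 0.04 FPKM in both ear tissues. Alx4 was at 0.29 and 0.23 FPKM in dorsal skin, 0.08 and 0.13 FPKM in ear skin, and 0.28, 0.21 and 0.45 FPKM in the complex, whose range held the dorsal values.

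Among the other positional factors in the ear table, 22 craniofacial and 19 trunk and limb genes were tested. In ear against dorsal skin 6 craniofacial factors were higher and 10 lower (median 0.04, against 0.33 over all genes, of which 59.3% passed), with Prrx2 (2.45) and Prrx1 (1.13), limb and facial mesenchyme factors, the most raised and Dlx3 (-3.41) and Msx2 (-2.53), which act in the hair follicle, the most reduced. The dorsal libraries held hair matrix and shaft markers at 6722 and 6787 FPKM in sum, against 29.3 and 32.0 FPKM in ear skin, and their part in the Dlx3 and Msx2 differences was not tested. Of the trunk and limb factors 14 were higher and 0 lower (median 0.85, against the same 0.33), led by Twist2 (2.30) and Meis2 (1.76).

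In the complex against ear skin 12 craniofacial factors were higher and 8 lower (median 0.41), and 11 trunk and limb factors were higher and 5 lower (median 0.39), against a median of -0.11 over all genes, of which 66.5% passed. Msx1, a factor of facial and limb mesenchyme, was among the most raised craniofacial factors (139.2 against 13.4 FPKM, difference 3.28), and Emx2 (2.41) and Nr2f1 (1.72) led the trunk and limb list. Tfap2b (-4.34) was lower and Tfap2c, an epidermal factor, was listed at 0 in the complex against a mean of 22.1 FPKM in ear skin. Shox2 (-1.27) and Twist2 (-1.15) were the most reduced trunk and limb factors. In the complex against dorsal skin 11 craniofacial factors were higher and 10 lower (median 0.30), from Prrx2 (4.64) and Prrx1 (3.51) to Dlx3 (-7.34) and Msx2 (-4.68), and 17 trunk and limb factors were higher and 2 lower (median 1.15), from Emx2 (3.72) and Meis2 (2.93) to Shox2 (-1.26) and Tbx1 (-0.96). The median over all genes was 0.24 there, and 71.1% passed.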

How the data were processed

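Whole-skin RNA was made into unstranded tagmentation libraries and sequenced as pairs. Per the labels, the authors quantified the reads against mm10 with RSEM 1.2.25 and deposited FPKM values per gene, with 2 decimals. Their methods name a correction for batch effects but neither the batches nor the procedure, so batches could not be set against the groups here. Here the FPKM values were taken as deposited and transformed to log2(FPKM + 1). A gene was tested if 2 or more libraries of the fit reached 0.5 FPKM, with limma 3.58.1 in R 4.3.3, with a variance trend, 2-sided and with Benjamini-Hochberg adjustment over all genes (threshold 0.05). Because the values were FPKM, no count model was used. The skin table was fitted as 18 groups and the ear table on its own. On simulated data for dorsal against chin skin (21257 genes, 200 changed), 91.5% of changed genes were recovered and 5.67% of calls were false. Depth was estimated from the FPKM steps of the 25166 genes with 1 transcript, since fragment counts were not used here. Gene positions came from the GENCODE annotation of GRCm38. No sequence is shown, as the measurements are of whole genes.

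The members and the gene lists were chosen with earlier results of these data known, and the lists overlap with genes expressed by many skin cells. Named outside the 8 members were, by rule, the 3 genes most correlated with each member over the group means, and, from the lists of other factors, those with the largest change in each direction among the called genes without overlap of libraries. A gene that this rule names in the ear table is not reported here. The Hox genes and the marker sums beside the groups that went against their labels were chosen after values were seen. Alternatives were another pseudocount, 2 other filters, 3 rescalings, no variance trend, a replicate block, leaving out each library, and the dorsal refractory telogen libraries in the ear comparison. A fit without the competent telogen and late anagen stages, fits on group means, and marker correlations without the chin late anagen and dorsal competent telogen groups were added after seeing the data. Of the marker lists, the adipocyte and mammary gland lists correlated with members over the 18 groups at between -0.56 and 0.27 and were not used further.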

Additional observations from a re-analysis of the deposited data

Results flagged for a closer look

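For 5 members the differences between domains changed with the hair cycle stage by a test of the interaction itself (limma F test, adjusted over 21257 genes, of which 73.3% passed). Adjusted p was 8.48e-10 for Tbx15, which was highest in chin skin in refractory telogen, in dorsal skin in early anagen and in ventral skin in competent telogen. It was 6.51e-09 for Dlx5, for which ventral minus chin was -0.71 in mid anagen and 0.73 in late anagen. It was 6.36e-06 for Tbx5, with a ventral minus chin difference of 0.82 in competent telogen and -0.05 in early anagen. It was 1.40e-05 for Alx4, for which dorsal minus ventral was -0.49 in competent telogen and 0.64 in early anagen, and 0.00125 for Tbx18, with dorsal minus ventral at -0.71 and 0.33 in the same stages. The chin late anagen and dorsal competent telogen libraries, which resembled each other, enter each of these tests. Tbx5 met the minimum for its test only through ventral competent telogen, the group where it was highest. Alx4 met it only through its highest groups, ventral competent telogen and dorsal early anagen among them. No group held 4 or more libraries, so single libraries were not screened for distance from their group.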

How the results depend on the processing

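The 7 domain calls of members became 4 with a minimum of 1 FPKM, 2 without the competent telogen and late anagen stages, and 0 on group means, with 18 means and with 12 means of 4 stages. Calls at single stages (35) became 22 and 15, interaction calls (5) became 3 with a minimum of 1 FPKM, and stage calls inside domains (15) became 9 and 8, where fewer members or stages were tested. Ear calls (8) became 14 without a filter. Leaving out each library gave 6 to 9 domain calls, 31 to 38 stage-wise calls, 5 to 6 interaction calls, 14 to 17 stage calls and 8 ear calls. The replicate block gave 7 domain, 33 stage-wise, 5 interaction and 15 stage calls; deviations of same-numbered libraries correlated at -0.17 to 0.16 (median 0.00, 327 pairs), so the numbers were not taken as pairing. No paired analysis was possible for the ear table because its ear skin columns carried no matching replicate numbers.

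Signs turned for differences near 0. Alx4 dorsal minus ventral was -0.022 with a pseudocount of 0.1 and -0.017 with quantile normalization, and Alx4 ventral minus chin 0.012 with the latter. In the ear table Tbx18 ear minus dorsal was 0.053 after TPM rescaling and 0.32 with refractory dorsal libraries, Dlx6 ear minus dorsal -0.060 by median of ratios and -0.24 by quantile normalization, and Tbx18 complex minus dorsal -0.037 and -0.053. Without the 2 stages Dlx5 ventral minus chin was -0.098, Alx4 dorsal minus chin 0.029 and Dlx5 dorsal minus ventral 0.0086, likewise on 12 means. Leave-one-out ranges were -0.033 to 0.064 for En1 and -0.042 to 0.072 for Dlx5 in ventral minus chin, -0.0062 to 0.083 for Tbx15 and -0.017 to 0.026 for Alx4 in dorsal minus ventral, and -0.14 to 0.063 for Tbx18 and -0.061 to 0.097 for Dlx6 in ear minus dorsal. The Dlx5 dorsal minus ventral call was lost without replicate 1 of dorsal catagen, dorsal competent telogen, dorsal early anagen or ventral catagen, replicate 2 of dorsal refractory telogen, ventral late anagen, ventral mid anagen or ventral refractory telogen, or replicate 3 of dorsal mid anagen or ventral early anagen (-0.26 to -0.15 over all libraries), and also without a filter (adjusted p = 0.0609) and by median of ratios (0.0629). Leaving out 1 library added a call for Dlx6 ventral minus chin in 7 runs, Dlx5 dorsal minus chin in 5 and Tbx5 dorsal minus chin in 2. The causes were not tested. Weak members rest on few fragments, which limits their differences.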
